A study of Mus musculus with 12 samples.

Results

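Miat, Malat1, Neat1, Gas5, Dleu2 and the small nucleolar RNA host genes Snhg1, Snhg8, Snhg12 and Snhg15 are 9 long noncoding RNA (lncRNA) genes that were measured here in T cells of infected mice. They were picked by name from the authors' deposited result table, out of 55401 genes in all and 9911 genes annotated as lncRNAs, and all 9 had enough counts to be tested. The list was drawn up with their differences between the 2 cell populations already known. The values of that contrast are therefore a description of these genes. No p-value is given for them, and whether a gene passed the threshold applied to all genes (called, below) is stated only as part of that description. Both populations were CD4 T cells from spleens of C57BL/6 mice infected with Leishmania donovani, the parasite of visceral leishmaniasis, and harvested on day 21. The first population, TLCP, was sorted as LAG-3+ CXCR5+ PD-1lo/int cells. The second, Tfh, was sorted as CXCR5+ PD-1hi cells, described by the submitters as mostly germinal center T follicular helper cells. Each population has 6 libraries, numbered 1 to 6, and the series names 6 mice. Both populations share the strain, the infection, the day and the magnetic bead enrichment of CD4 cells, and no uninfected group enters the comparison.

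Long noncoding RNAs are transcribed and processed much like messenger RNAs but code for no known protein. Malat1 and Neat1 stay in the nucleus, where Malat1 gathers in speckles rich in splicing factors and Neat1 forms the scaffold of paraspeckles. Miat, also called Gomafu, is a spliced nuclear RNA with repeated copies of a splicing signal. The Snhg genes and Gas5 carry small nucleolar RNAs in their introns, and these guide chemical modification of other RNAs. Their spliced exons are known as targets of nonsense-mediated decay, the pathway that removes messages with early stop codons. Dleu2 is the host transcript of the microRNAs miR-15a and miR-16.

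The repeats by which Miat is known are shown first, because Miat had the highest fold change of all tested lncRNA genes. The motif TACTAAC, searched on the transcript strand only, occurs 6 times in the 8758-base Miat transcript of GENCODE M21 (GRCm38), in 2 clusters of the last exon (exon 7 of 7). The clusters lie on the minus strand at chr5:112217314-112217455 and chr5:112216757-112216807. Capitals mark the motif.
Miat repeat block 1: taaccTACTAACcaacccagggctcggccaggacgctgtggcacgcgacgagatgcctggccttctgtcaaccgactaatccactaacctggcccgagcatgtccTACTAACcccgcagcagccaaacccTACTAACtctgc
Miat repeat block 2: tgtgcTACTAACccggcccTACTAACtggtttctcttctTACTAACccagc
Of the longest transcripts of 9911 lncRNA genes, 362 held the motif at least once and 2 held at least 6 copies. Among lncRNA windows of 142 bases 0.361% held a copy, and among windows of 51 bases 0.124% did. Of the 8 other genes described here, Neat1 held 1 copy and 7 held none. A match of letters is no evidence that a protein binds there.

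The ends of Malat1 and Neat1 are shown next. Both of these nuclear RNAs were higher in libraries 1 to 3 than in libraries 4 to 6 of each population, as Dleu2 also was. Malat1 and the long form of Neat1, whose end is shown here, are known to be protected at the mature end by a triple helix. It joins U-rich stretches with an A-rich tract in place of a poly(A) tail. The stretches below are from GENCODE M21 on the minus strand, at chr19:5795982-5796059 for Malat1 and at chr19:5824708-5824778 for Neat1. The first run of capitals marks the longest stretch shared by both windows ahead of the tract, and the last marks the tract.
Malat1: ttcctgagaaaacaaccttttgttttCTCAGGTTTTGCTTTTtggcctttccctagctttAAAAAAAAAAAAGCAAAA
Neat1: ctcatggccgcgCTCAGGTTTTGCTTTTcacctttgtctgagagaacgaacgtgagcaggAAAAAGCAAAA
The shared stretch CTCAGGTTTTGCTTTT is 16 bases long and was found in 2 of the 9911 lncRNA genes, which are these. The letters AAAAAGCAAAA occur in 0.0136% of lncRNA windows of 71 bases, and a run of 12 A in 0.239% of windows of 78 bases. The libraries were made by poly(A) selection, so the levels below cover the part of each RNA that this selection captured. Neat1 was counted per gene, so its forms were not told apart.

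The libraries held 6939770 to 12688306 reads assigned to genes, of which a single ribosomal RNA-like gene, CT010467.1, took 12.9% to 24.1% in TLCP and 16.6% to 30.9% in Tfh. With ribosomal RNA genes left out before scaling, the log2 fold change of Miat was 4.66. Of 12015 tested genes, 33.2% differed between the populations at an adjusted p under 0.05 (edgeR's quasi-likelihood test, Benjamini-Hochberg adjustment over all tested genes). Of 519 tested lncRNA genes 21.8% did. The lncRNA genes were taken from the GENCODE M21 list of them. Some carry names of protein-coding genes, such as Cct6a and Trerf1, and this was not checked further. Levels are given as CPM, read counts scaled to library size, and log2 fold changes (log2FC) are TLCP minus Tfh. The genes of the sort matched the labels: Lag3 was 189 ± 31.2 CPM in TLCP and 40.5 ± 11.1 in Tfh (SD, n = 6 each), and Pdcd1, which encodes PD-1, was 36.6 ± 4.60 and 318 ± 34.8 CPM. Cd4 was 725 ± 47.1 and 955 ± 47.5 CPM, and Cxcr5 was present in both at 277 ± 56.9 and 849 ± 78.2 CPM. Transcripts of several other cell types were also higher in TLCP. Of the tested markers, 10 of 12 B cell, 7 of 7 plasma cell and 6 of 6 basophil and mast cell genes rose, and 5 of 6 CD4 T cell genes fell. Of few tested markers, 2 of 3 dendritic cell and 1 of 3 neutrophil genes rose, 0 of 3 macrophage and monocyte genes passed, and of 4 NK and CD8 T cell genes 1 rose and 1 fell. These differences in composition stand beside every value below, and their part in those values was not tested unless stated. In bulk RNA, fewer cells of a type and less RNA per cell cannot be told apart. Nothing in the labels ties each library to its own mouse, so p-values measure only the spread between these libraries.

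Miat, at chr5:112213228-112229395 on the minus strand, was high in TLCP and close to the detection limit in Tfh. Its level in the TLCP libraries was 14.4 CPM at the lowest, 18.9 at the median and 30.1 at the highest. In the Tfh libraries it was 0 CPM at the lowest, 0.684 at the median and 1.51 at the highest. The groups did not overlap, and the lowest TLCP library stood far above the highest Tfh library. In reads, Miat had 1156 counts over the TLCP libraries and 45 over the Tfh libraries. The Tfh library with 0 counts, replicate 4, is also the shallowest, and a count of 0 there allows up to 3 counts or 0.478 CPM, counting error only.

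The mean of Miat was 19.6 ± 5.64 CPM in TLCP against 0.706 ± 0.584 in Tfh (SD, n = 6 each), and the log2FC was 4.66 (SE 0.40). This placed it first of 519 tested lncRNA genes and at rank 13 of all 12015 tested genes. TLCP was higher in 6 of 6 pairs of libraries with the same number. In libraries 1 to 3 alone the log2 fold change was 5.20 and in libraries 4 to 6 alone 4.18. The authors' deposited table gives 4.70 for the same contrast. On the log2(TPM + 1) scale, where the added 1 weighs heavily on a gene at this level, the difference was 2.46. Reads on the opposite strand of Miat came to 2.04% of its reads.

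Over the TLCP libraries the highest levels of Miat and of the transcripts of other cells fell in different libraries, the lowest in the same one. Replicate 1 had the highest Miat (30.1 CPM), with 8871 CPM of Ighm, the heavy chain of IgM, and 27.1 CPM of Mcpt8, a basophil protease. Replicate 5 had the highest Ighm, 22786 CPM, with Miat at 20.3 CPM. Mcpt8 was highest in replicate 3, at 31.8 CPM with Miat at 18.9 CPM, and next highest in replicate 1. Replicate 2 had the lowest Miat, Ighm and Mcpt8 of the group, at 14.4, 3730 and 7.29 CPM. The summed basophil and mast cell markers were 28.3 to 101 CPM in TLCP and 0.359 to 7.64 CPM in Tfh. Without the 2 TLCP libraries that held the most immunoglobulin counts, replicates 4 and 5, the log2 fold change of Miat was 4.72. Whether basophils, mast cells or B lineage cells carried part of the Miat signal was not tested.

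The genes whose pattern was most like that of Miat were found by the root mean square difference of log2 CPM over the 12 libraries, each gene centred on its own mean. They were Ccr3, a chemokine receptor gene (0.618), Cacna1h, a calcium channel gene (0.684), Igkv4-53, an immunoglobulin kappa segment (0.711), Socs2, a suppressor of cytokine signaling (0.727), and Mcpt8 (0.733). The median of this difference over all tested genes was 2.50. Ccr3 was 8.42 ± 3.83 CPM in TLCP against 0.334 ± 0.418 in Tfh, and Socs2 was 16.8 ± 3.12 and 1.24 ± 1.04 CPM. The likeness rests mainly on the shared step between the populations and is given as a description. Igkv4-53 and Mcpt8 are transcripts of B lineage cells and of basophils, whose part in the Miat signal was not tested. Which cells carried Ccr3, the closest gene, Cacna1h and Socs2 was not tested either.

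The neighbours of Miat differed from each other. Tpst2, which encodes a tyrosylprotein sulfotransferase and starts 47296 bases beyond Miat, rose from 24.8 ± 6.74 to 59.4 ± 5.98 CPM (log2FC 1.27, SE 0.14, adjusted p = 1.5e-06). Pitpnb, the nearest tested gene on the other side at 824869 bases, was 61.7 ± 5.16 CPM in TLCP against 61.5 ± 6.09 in Tfh and did not pass the test (adjusted p = 0.97).

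**Figure D1:**
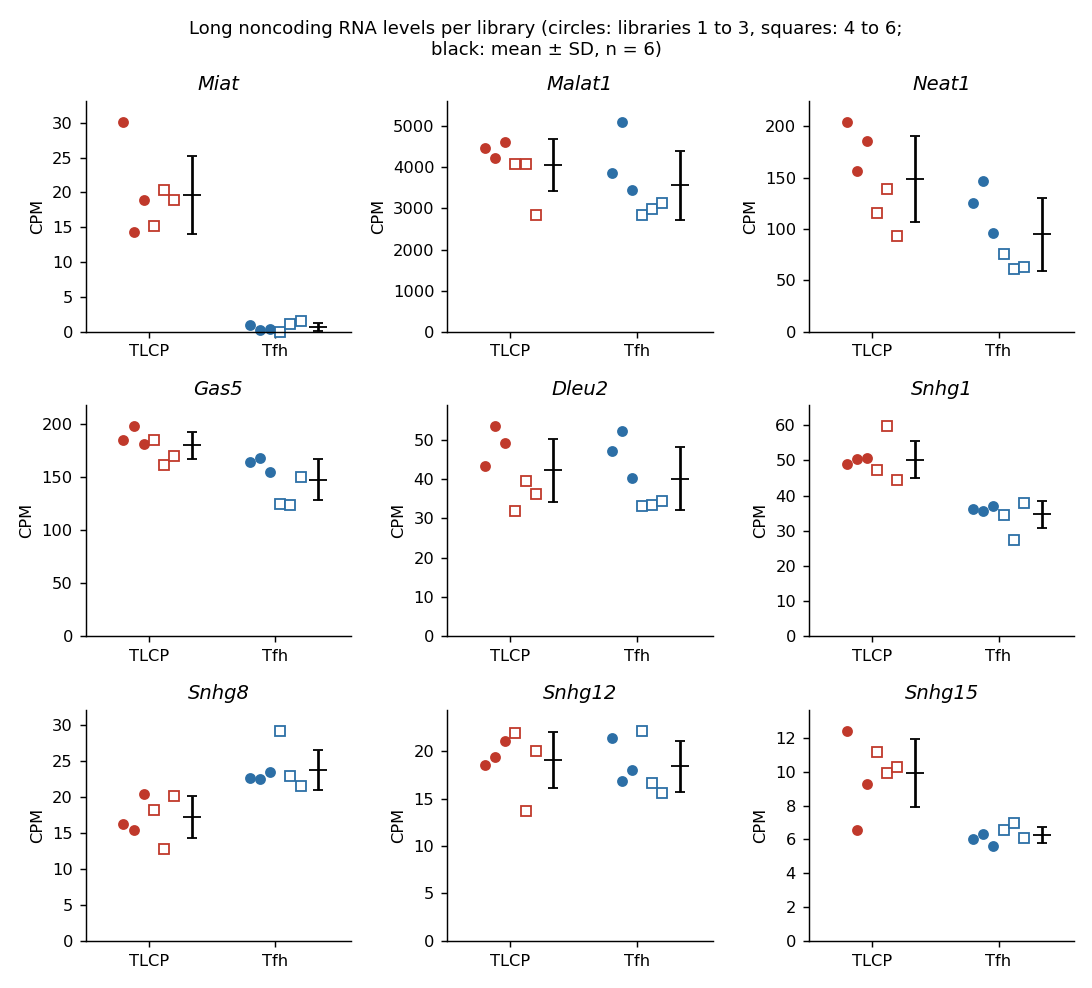
Level of each of the 9 lncRNA genes in every library, in TMM-scaled CPM on linear axes that start at 0, with TLCP in red, Tfh in blue and black bars for mean ± SD (n = 6). Miat and Snhg1 lie higher in every TLCP library than in any Tfh library, Snhg8 lies lower in every TLCP library, and the other 6 genes overlap.

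Malat1, at chr19:5795690-5802672 on the minus strand, was the most abundant of the tested lncRNA genes by mean CPM and held 0.256% to 0.483% of the assigned reads. Its TLCP libraries were 2837 CPM at the lowest, 4152 at the median and 4616 at the highest. Its Tfh libraries were 2838 CPM at the lowest, 3293 at the median and 5108 at the highest. The groups overlapped over nearly their whole range. TLCP was higher in 4 of 6 pairs, and the log2FC was 0.18 (SE 0.15). That difference is about as large as the shift between scalings: with library totals alone, which moved the median of all tested genes from -0.004 to 0.17, Malat1 stood at 0.35.

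Neat1, at chr19:5824708-5845478 and 22036 bases from Malat1 on the same strand, was 93.7 CPM in the lowest, 148 at the median and 205 in the highest TLCP library. In Tfh it was 61.1 CPM in the lowest, 86.1 at the median and 147 in the highest library. The groups overlapped, although the TLCP library was the higher one in 6 of 6 pairs. Its log2FC was 0.65 (SE 0.27), with pairs from 0.094 to 1.18. With the replicate number as a block the estimate was 0.68 with an SE of 0.12.

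Malat1, Neat1 and Dleu2 had a second pattern, by library number. In both populations every library numbered 1 to 3 lay above every library numbered 4 to 6. Malat1 was 4220 to 4616 CPM in TLCP libraries 1 to 3 against 2837 to 4084 CPM in 4 to 6, and 3461 to 5108 against 2838 to 3125 CPM in Tfh. Neat1 was 157 to 205 against 93.7 to 139 CPM in TLCP and 96.3 to 147 against 61.1 to 76.0 CPM in Tfh. Such a split was found in 3.33% of all tested genes and in 6.55% of the tested lncRNA genes, against 2.92% and 0.193% for the opposite order. The share of CT010467.1 also differed by number, from 17.7% to 24.1% in TLCP libraries 1 to 3 and 12.9% to 13.7% in 4 to 6, but in the other order in Tfh, from 16.6% to 25.5% and 22.8% to 30.9%. No label names a batch, the pattern was noticed in these values, and its source was not tested.

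Within each set of libraries the populations could be compared again. In libraries 1 to 3 alone the log2 fold changes of Malat1 and Neat1 were 0.10 and 0.57, and in libraries 4 to 6 alone 0.28 and 0.79. Both sets come from the libraries that the list was drawn from, so these values are a description. Malat1 was lower in TLCP in pair 2 (log2 ratio -0.28) of the first set and in pair 6 (-0.14) of the second. The genes most like Malat1 over the 12 libraries were Taok1, Mcoln1 and Uvssa, with root mean square differences of 0.107, 0.116 and 0.117 against a median of 0.401. Those most like Neat1 were Ankrd16, Ttc14 and Pnisr, with 0.116, 0.165 and 0.168 against a median of 0.635. Of these 6 genes, all but Mcoln1 also split by library number. That follows largely from their choice by likeness to genes with this split and is given as a description.

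**Figure D2:**
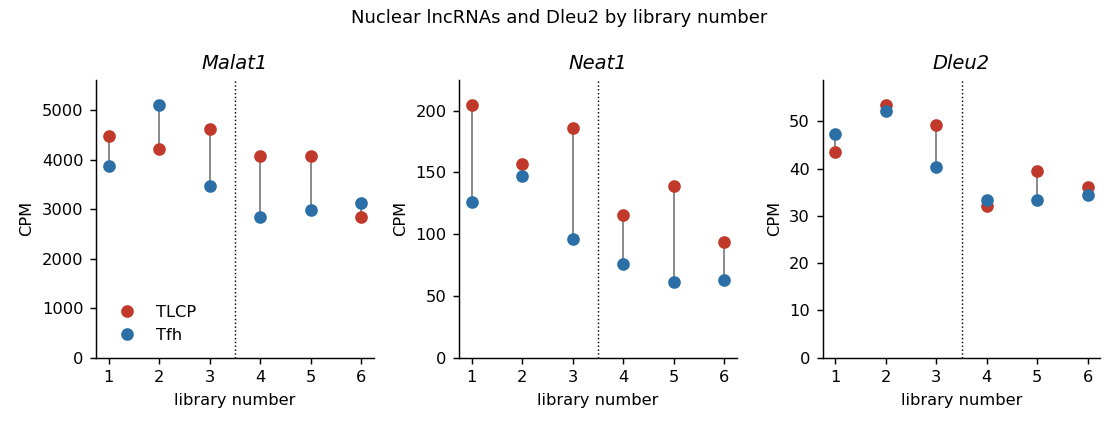
Level of Malat1, Neat1 and Dleu2 in CPM against library number, with a grey line joining the TLCP (red) and Tfh (blue) library of each number and a dotted line between numbers 3 and 4. In each panel and each population the libraries numbered 1 to 3 lie above those numbered 4 to 6, and Neat1 is higher in TLCP in 6 of 6 pairs.

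The counts for proteins of nuclear bodies stand against 16.8% of all tested genes called higher and 16.4% called lower. Of 22 paraspeckle protein genes, 4 rose, 3 fell and 15 did not pass, with a median log2FC of 0.046 against -0.004 over all tested genes. Hnrnpa1, an RNA-binding protein, rose by 0.81 (SE 0.15, adjusted p = 0.00069) and Hnrnph3, a relative, by 0.44. Hnrnpul1 fell by 0.26 on the log2 scale, but was 0.031 higher on the log2(TPM + 1) scale. Without TLCP replicates 4 and 5, the richest in immunoglobulin reads, 2 rose and 2 fell.

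Of 21 tested genes for splicing and nuclear speckle proteins, 7 rose, 0 fell and 14 did not pass, with a median of 0.17, where 33.2% of all tested genes were called in either direction. Pnn, which encodes the splicing protein pinin, rose by 0.46 (SE 0.080, adjusted p = 0.00016), Luc7l3 by 0.38 and Srrm2, a speckle scaffold gene, by 0.35. The count was 13 with library totals alone and 13 on the log2(TPM + 1) scale. It was 4 without any 1 of TLCP replicates 1, 2 and 5 and Tfh replicate 6, and 12 without Tfh replicate 2. Beside Neat1, the neighbour Frmd8 rose by 0.30 (adjusted p = 0.0040). Gm37376, which overlaps Malat1 on the other strand, did not pass.

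Dleu2, at chr14:61602839-61682373 on the minus strand, surrounds the genes of 2 microRNAs that repress messages through the same seed. They are printed because the seed defines the target list below. The sequences are from RefSeq (GRCm38.p6), and capitals mark the seed, bases 2 to 8, which is the same in both.
miR-15a-5p: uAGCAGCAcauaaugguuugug
miR-16-5p: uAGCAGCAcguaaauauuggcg
The mature sequences lie at chr14:61632075-61632096 and chr14:61631936-61631957. These libraries do not measure them: the 2 microRNA genes had 11 counts in all over 12 libraries.

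Dleu2 was 32.0 CPM in the lowest, 41.4 at the median and 53.4 in the highest TLCP library. In Tfh it was 33.3 CPM in the lowest, 37.3 at the median and 52.1 in the highest library. The ranges were nearly the same. The log2 fold change of 0.072 (SE 0.14) took the other sign, -0.014, without TLCP replicate 2, and TLCP was higher in 4 of 6 pairs. By library number Dleu2 was 43.4 to 53.4 against 32.0 to 39.5 CPM in TLCP and 40.3 to 52.1 against 33.3 to 34.3 CPM in Tfh.

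Of 11 tested genes known as miR-15 and miR-16 targets, 4 rose, 2 fell and 5 did not pass, with a median log2 fold change of 0.25, against 16.8% called higher and 16.4% lower among all tested genes. Ccnd1, the cyclin D1 gene, was 3.99 ± 1.92 CPM in TLCP against 0.563 ± 0.379 in Tfh (log2FC 2.83, SE 0.44, adjusted p = 5.6e-05). Pafah1b2, an enzyme subunit gene, fell by 0.36 on the log2 scale. Next to Dleu2, Spryd7 rose from 4.37 ± 1.38 to 7.81 ± 1.99 CPM (adjusted p = 0.0092), whereas Rnaseh2b and the overlapping Trim13 did not pass.

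The 5 host genes of small nucleolar RNAs differ in how their transcripts start, and the first bases are shown because a start at C followed by a run of pyrimidines (C or T) is the feature that links such hosts to messages of the translation machinery. The sequences are from the RefSeq promoter table (GRCm38.p6), which held 8 of the 9 genes, and Neat1 was not among them. Capitals mark a C followed by at least 4 C or T, searched on the transcript strand within 5 bases of the listed start.
Gas5, first start: gagctcgacagcccggagccaaaggggcgg
Gas5, second start: CTTTCggagctgtgcggcattctgagcagg
Snhg1: ctcatttttccttgttcggggtaagtactc
Snhg8: CTCTTTggctgcgatccgcctacgagtatg
Snhg12: CTTTCTCgcttcatccgcggtccctgtctg
Snhg15: aactttaagcacacgtgagcgtcctcagct
These lie at chr1:161034601-161034630, chr1:161035166-161035195, chr19:8723487-8723516, chr3:123508307-123508336, chr4:132308677-132308706 and chr11:6528731-6528760, in that order. Of all 32851 listed promoters 18.3% met the same criterion. Of the genes that host no small nucleolar RNA, Miat met it too, and Malat1 and Dleu2 did not. No match says only that these letters are not in this window.

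Snhg1, at chr19:8723475-8726443 on the plus strand, was 44.3 CPM in the lowest, 49.6 at the median and 59.7 in the highest TLCP library. In Tfh it was 27.3 CPM in the lowest, 35.8 at the median and 37.9 in the highest library. The groups did not overlap. The log2 fold change was 0.53 (SE 0.093), with 0.46 in libraries 1 to 3 and 0.59 in 4 to 6. Slc3a2, an amino acid transporter subunit gene that starts 106 bases away on the other strand, rose from 62.8 ± 7.70 to 95.8 ± 22.6 CPM (log2FC 0.61, SE 0.13, adjusted p = 0.0024). Slc3a2 also split by library number, with 1 to 3 below 4 to 6 in both populations. Wdr74, on the other side, did not pass.

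Gas5, at chr1:161034422-161038539 on the plus strand, was 161 CPM in the lowest, 183 at the median and 198 in the highest TLCP library. In Tfh it was 124 CPM in the lowest, 153 at the median and 168 in the highest library. The groups overlapped slightly, and the TLCP library was the higher one in 6 of 6 pairs. The log2 fold change was 0.28 (SE 0.080), the smallest among the called ones of these 9 genes. The SD of Gas5 was 7.13% of the mean in TLCP, the smallest of the 9, and 13.0% in Tfh. Zbtb37, a zinc finger gene that overlaps the start of Gas5 on the other strand, rose by 0.46 (SE 0.12, adjusted p = 0.0064). Reads were counted by strand, and those on the opposite strand came to 1.13% of the reads at Gas5.

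Snhg15, at chr11:6525591-6528779 on the minus strand, was the lowest of the 9 by mean CPM in TLCP and stood above Miat alone in Tfh. Its TLCP libraries were 6.53 CPM at the lowest, 10.1 at the median and 12.4 at the highest. Its Tfh libraries were 5.61 CPM at the lowest, 6.20 at the median and 6.94 at the highest. Only TLCP replicate 2 lay within the range of Tfh, and the other 5 lay above it. Its log2FC was 0.67 (SE 0.17), 0.65 in libraries 1 to 3 and 0.67 in 4 to 6, and Snhg15 was called in neither of these smaller sets. Myo1g, a myosin gene to 1 side, rose from 88.5 ± 8.73 to 168 ± 16.2 CPM (adjusted p = 2.8e-08), and Ccm2 to the other fell from 114 ± 11.6 to 83.6 ± 5.97 CPM (adjusted p = 0.00015).

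Snhg8, at chr3:123507552-123508404 on the minus strand, went the other way. Its TLCP libraries were 12.8 CPM at the lowest, 17.2 at the median and 20.4 at the highest. Its Tfh libraries were 21.4 CPM at the lowest, 22.8 at the median and 29.1 at the highest. The groups did not overlap, and TLCP was the lower one in 6 of 6 pairs. The log2 fold change was -0.46 (SE 0.12). It kept its sign under every scaling tried but was smaller, -0.28 with library totals alone and -0.18 on the log2(TPM + 1) scale, and Snhg8 was called under neither. Its neighbours Mettl14 and Gm4617 did not pass.

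Snhg12, at chr4:132308623-132311024 on the plus strand, was 13.6 CPM in the lowest, 19.7 at the median and 21.9 in the highest TLCP library. In Tfh it was 15.5 CPM in the lowest, 17.4 at the median and 22.1 in the highest library. The groups overlapped fully. A log2FC of 0.053 (SE 0.13) was fitted, with TLCP higher in 3 of 6 pairs. An interval of 2 SE on either side of this estimate includes changes of about the size seen in Gas5, so the data do not show equal levels. Neither Taf12 nor Trnau1ap, its neighbours, passed.

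The 25 small nucleolar RNA genes inside these 5 hosts (10 in Gas5, 8 in Snhg1, 5 in Snhg12, 1 each in Snhg8 and Snhg15) had 0 counts in each of the 12 libraries. A count of 0 allows up to 3 counts per library, counting error only, and such RNAs carry no poly(A) tail. The values above therefore describe the host transcripts and not the small RNAs, and spliced and unspliced forms were not told apart. Whether reads shared by a host exon and a small RNA gene were left out of the counts was not checked.

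Among 10 tested host genes of the same kind beyond these 5, out of a list of 16, 4 rose and 0 fell, against 16.8% called higher among all tested genes and 11.4% among tested lncRNA genes. Their log2 fold changes ran from 0.27 to 0.77, with a median of 0.61 against -0.004 over all tested genes and 0.11 over tested lncRNA genes. Zfas1 rose from 18.8 ± 1.68 to 28.0 ± 2.30 CPM (log2FC 0.57, SE 0.098, adjusted p = 0.00014), Snhg5 by 0.70 (SE 0.16) and Snhg16 by 0.73 (SE 0.21). The fourth, Snhg17, named after its values were seen, rose by 0.56. With library totals alone 7 rose, and in libraries 4 to 6 alone 2 did. None of the 10 had a negative log2 fold change, in contrast to Snhg8, but this difference was not tested.

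**Figure D3:**
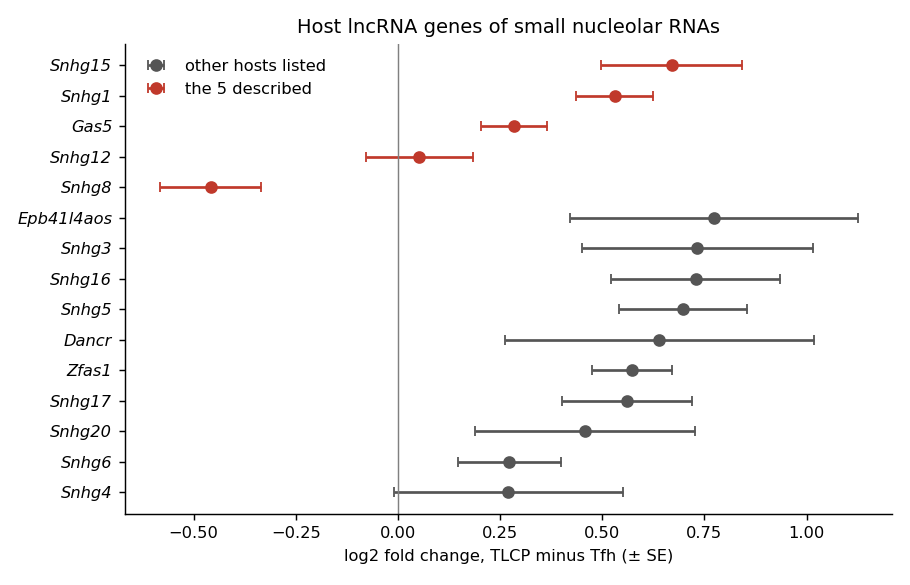
Log2 fold change (TLCP minus Tfh) with its SE for host lncRNA genes of small nucleolar RNAs, the 5 described in red and 10 others from the list in grey. Snhg8 at -0.46 is the 1 gene on the negative side, and the 10 others lie between 0.27 and 0.77.

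The 3 lists that follow, linked to these hosts, stand against 33.2% of all tested genes called. Of 20 messages known for a pyrimidine start, many of them for translation factors, 2 rose (Nap1l1, a histone chaperone gene, by 0.21 and Eef1d, an elongation factor gene, by 0.27), 1 fell and 17 did not pass, with a median of 0.0012. The 1 that fell, Eif3e, an initiation factor gene, was -0.15 with TMM scaling but 0.017 with library totals alone and 0.13 on the log2(TPM + 1) scale. The 3 calls became 0 without TLCP replicates 4 and 5, and 1 without any 1 of TLCP replicates 4, 5 and 6 and Tfh replicates 1 and 3. Of 20 genes of nonsense-mediated decay, 3 rose and 3 fell. Upf3b rose by 0.54 and Smg1, the kinase of the pathway, by 0.33, whereas Magoh, a core of the exon junction complex, fell by 0.44 on the log2 scale. In libraries 4 to 6 alone 2 rose and 1 fell.

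Of 16 tested genes for proteins that assemble with small nucleolar RNAs, 4 rose and 1 fell, with a median of 0.022. Nop56, a core protein of box C/D particles, rose from 40.7 ± 2.66 to 63.8 ± 5.91 CPM (log2FC 0.65, SE 0.079, adjusted p = 3.1e-06) and Dkc1, the pseudouridine synthase of box H/ACA particles, by 0.37. Nop10, its partner in the same particles, fell from 36.7 ± 2.39 to 25.2 ± 2.41 CPM (log2FC -0.54, SE 0.089). In libraries 4 to 6 alone 2 rose and 1 fell.

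Seen as a group, 5 of the 9 lncRNA genes were among the called genes, 4 of them higher (Miat, Gas5, Snhg1 and Snhg15) and 1 lower (Snhg8) in TLCP. Across the same fit 33.2% of all tested genes were called, 16.8% higher and 16.4% lower, and of tested lncRNA genes 21.8% were, 11.4% higher and 10.4% lower. The list was drawn up from this contrast, so nothing is read from its share. Which of the 9 passed depended on the fit, and nothing is read from that either. In libraries 1 to 3 alone (27.6% of all tested genes called) Snhg15 was lost, and in libraries 4 to 6 alone (22.8%) Snhg15 and Snhg8 were lost and Neat1 was gained, which left 4 each time. With the replicate block, which called 37.1% of all tested genes, Neat1 made it 6. Without Tfh replicate 2 Malat1 and Neat1 made it 7, in a fit that called 32.7% of all tested genes. With library totals alone (34.1% called) and on the log2(TPM + 1) scale (27.6%) Neat1 joined and Snhg8 left. The 2 populations did not overlap for 3 of the 9 genes, Miat, Snhg1 and Snhg8, against 17.2% of all tested genes and 52 of the 519 tested lncRNA genes. TLCP was the higher one in all 6 pairs for 5 of the 9, against 17.6% of all tested genes. The median log2 fold change of the 9 genes was 0.28.

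**Figure D4:**
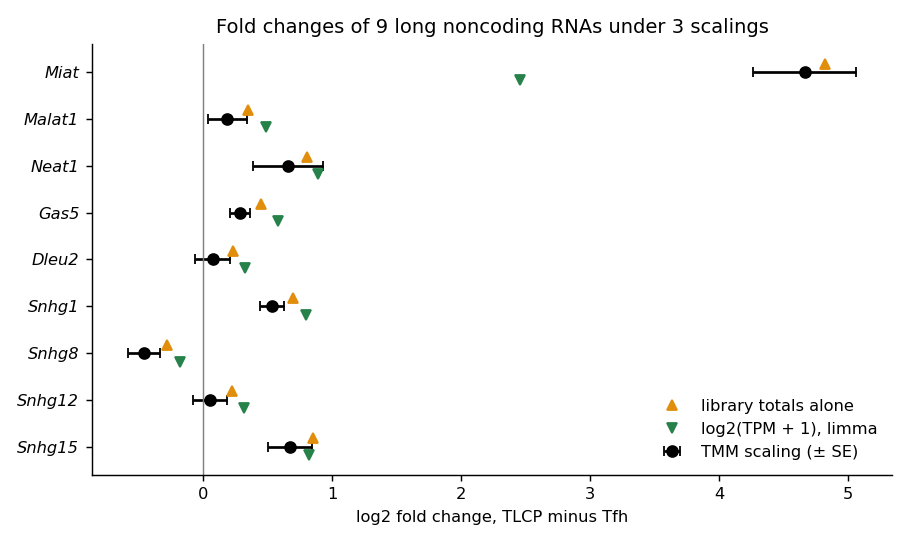
Log2 fold change (TLCP minus Tfh) of the 9 lncRNA genes with TMM scaling (black, ± SE), with library totals alone (orange) and from log2(TPM + 1) (green). Miat is at 4.66 with TMM scaling and 2.46 from log2(TPM + 1), Snhg8 is the 1 gene below 0 under all 3, and for the other 7 the totals and TPM lie to the right of TMM.

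Levels can be compared between genes only per length, for which the deposited TPM values were used. In TLCP the order was Malat1 (1506 ± 192 TPM), Gas5 (125 ± 12.1), Snhg8 (52.8 ± 10.6), Snhg1 (44.1 ± 4.81), Snhg12 (20.8 ± 3.71), Neat1 (18.6 ± 4.91), Snhg15 (9.89 ± 2.60), Dleu2 (9.65 ± 1.3) and Miat (5.57 ± 1.87). The neighbours Snhg8 and Snhg1, Snhg12 and Neat1, and Snhg15 and Dleu2 lay within 1 SD of each other. In Tfh the order was the same except that Dleu2 (7.75 ± 2.41 TPM) stood above Snhg15 (5.05 ± 0.591 TPM), Neat1 (10.1 ± 4.67 TPM) and Dleu2 lay within 1 SD of each other, and Miat was again last at 0.169 ± 0.143 TPM. So Miat, first by fold change, was the least abundant of the 9 per length in both populations. Neat1 fell from rank 13 of 519 lncRNA genes by mean CPM to rank 71 by mean TPM, given its transcript of 20771 bases. Its rank per length depends on that length, and reads from a shorter form were not told apart. Snhg8, with 776 bases, went from rank 50 to rank 18.

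**Figure D5:**
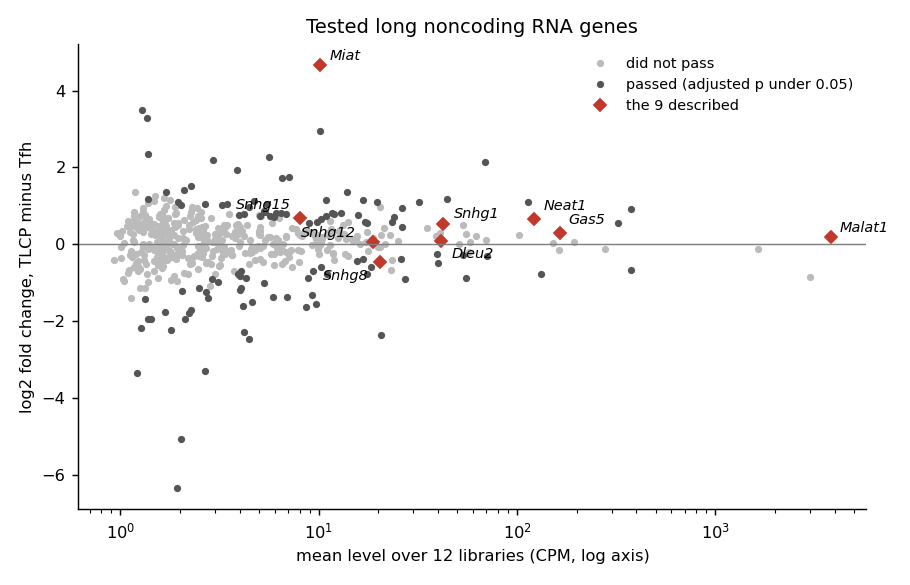
Log2 fold change (TLCP minus Tfh) against mean level in CPM (log axis) for the 519 tested lncRNA genes, dark where the adjusted p was under 0.05, with the 9 described genes as red diamonds. Miat has the highest fold change at 4.66, and Malat1 has the highest mean level with a fold change of 0.18.

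Of 22 other lncRNAs listed by name, 14 were tested, 4 rose and 0 fell, with a median of 0.27, against 16.8% called higher among all tested genes and 11.4% among tested lncRNA genes. Morrbid, a lncRNA of myeloid and lymphoid cell survival, rose from 3.25 ± 1.35 to 10.9 ± 2.44 CPM (log2FC 1.76, SE 0.24, adjusted p = 1.5e-05). AW112010, an RNA induced by inflammation, rose from 261 ± 33.8 to 490 ± 88.0 CPM, and Mir17hg, the host of a microRNA cluster, by 1.06 on the log2 scale. Firre, named after its values were seen, was the fourth at 0.85. Across the 19 neighbouring genes of the 9 lncRNAs, the counts were 6 higher, 1 lower and 12 not past the test, where 33.2% of all tested genes were called.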

How the data were processed

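Polyadenylated RNA of 12 libraries was sequenced by the submitters. Per the labels' protocols, cells were enriched with magnetic beads and sorted, RNA was extracted with TRIzol and columns, and KAPA RNA HyperPrep reagents were used. The tools were STAR 2.7.1a on GRCm38, bcl2fastq 2.20 and DESeq2 1.30.1, per the submitters' processing notes. The release of the annotation counted against was not given in the sources used here. As deposited, the files hold raw read counts per gene, and the sense-strand column was used. Antisense reads made up 2.83% to 4.19%. Rows that name no gene held 44.9% to 56.4% of reads and stayed out of library sizes and tests. The authors also deposited TPM values and a table of log2 fold changes with a normalized signal per library. That signal gave back whole reads for 100% of values (tolerance 0.01 reads), equal to the counts. The same test on them, chosen after seeing the data, called 3983 genes, a result that the equal counts fixed in advance.

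The counts were fitted with edgeR 4.0.16 in R 4.3.3 (filterByExpr, TMM, robust quasi-likelihood test, 2-sided, Benjamini-Hochberg, threshold 0.05) without covariates, and checked on simulated data. CPM are TMM-scaled. Alternatives were RLE factors, library totals, DESeq2 1.42.0, no filter, unstranded counts, limma 3.58.1 on log2(TPM + 1), the replicate block, no ribosomal RNA genes, and subsets of libraries. Deviations of same-numbered libraries were positively correlated (0.127 to 0.318, other numbers up to 0.209), so numbers were taken to pair them. For replicates 3 and 4 the same-number correlation (0.137 and 0.127) was below the highest with another number (0.209 and 0.160). The pairing is thus inferred from the data, and for numbers 3 and 4 the correlations do not back it. Spans of 54821 of 55401 genes, and of 8 of the 9 described, equal those of GENCODE M21. Gene positions are those in the deposited table, and the span of Snhg15 differs from M21.

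The 9 genes, the lists and the rules were chosen with earlier results of these data known. Named are these genes, the sort markers, the neighbours (nearest tested gene on each side and any overlapping on the other strand), the 3 genes with the smallest p of each list, the 4 highest and 4 lowest other lncRNAs (adjusted p under 0.05, 10 CPM or more in 1 group, and 6 pairs alike in sign), the genes most like Miat, Malat1 and Neat1 (prior count of 2), and the most abundant markers of other cells. Of the genes this rule names, 2 are not reported here.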

Additional observations from a re-analysis of the deposited data

Results flagged for a closer look

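In 176 groups of 6 libraries (the named genes in each population), 12 had a highest or lowest library far from the other 5 by Dixon's criterion (gap over range above 0.625). Chance flags about 1 in 20 groups. Among the 9 described genes, Malat1 was 2837 CPM in TLCP replicate 6 against 4071 to 4616 CPM in the other 5. Snhg1 was 27.3 CPM in Tfh replicate 5 against 34.4 to 37.9 CPM. Snhg8 was 29.1 CPM in Tfh replicate 4 against 21.4 to 23.4 CPM.

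Other single libraries that stood apart were low for Zfas1 in TLCP replicate 4 (23.5 CPM), Snhg5 in Tfh replicate 4 (9.24 CPM) and Srrm2 in TLCP replicate 6 (952 CPM). They were high for Ifngas1 in TLCP replicate 1 (14.5 CPM), Ms4a1, a B cell gene, in TLCP replicate 6 (422 CPM), and Gm4617 and Igkv4-53 in Tfh replicate 6 (8.45 and 3.43 CPM). Prss34, a basophil protease gene, and Zbtb46, a dendritic cell gene, were high in Tfh replicate 4 (3.34 and 5.89 CPM).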

How the results depend on the processing

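Of the counts of called genes recomputed under the alternatives, 244 stayed within 1.5 times the reported count and 20 did not. The 244 include refits on the reads recovered from the authors' signal, which equal the counts and could not move. The 113 lncRNA genes became 185 with DESeq2 and 204 without a filter. Listed hosts of small nucleolar RNAs went from 4 to 7 with library totals and 2 in libraries 4 to 6. Decay genes (6) and small nucleolar RNA protein genes (5) each fell to 3 in libraries 4 to 6. Pyrimidine-start messages went from 3 to 0, and paraspeckle genes from 7 to 4, without the 2 TLCP libraries with most immunoglobulin counts. Splicing genes went from 7 to 13 with library totals and to 13 on log2(TPM + 1). Leaving out each library gave 1 to 3 pyrimidine-start messages, 4 to 12 splicing genes, 105 to 130 lncRNA genes and log2 fold changes of 4.47 to 5.05 for Miat. Signs reversed for the called genes Eif3e (0.017 with totals, 0.13 on log2(TPM + 1)) and Hnrnpul1 (0.031 on the latter). Some genes that were not called, among them Dleu2 (-0.014 without TLCP replicate 2), Gm4617 and Pitpnb, also changed sign when 1 library was left out. The cause was not tested. With the replicate block 4453 of 12015 genes were called in place of 3983, and Neat1 was added to the 9 described genes' calls. Miat in Tfh is limited by depth, with 45 reads over 6 libraries.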

Other observations

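Among the 510 tested lncRNA genes other than the 9 described, 108 differed between the populations (21.2%), 55 higher and 53 lower in TLCP, by edgeR's quasi-likelihood test. Of these, 22 higher and 19 lower also reached 10 CPM in 1 population and had 6 of 6 pairs alike in sign. The highest was Gm15675, at 18.1 ± 5.17 CPM in TLCP against 2.33 ± 1.39 in Tfh (log2 fold change 2.95, SE 0.41). Gm2682 was far more abundant, at 112 ± 17.3 and 25.7 ± 4.59 CPM (2.13, SE 0.12), and Ifngas1, an antisense RNA at the interferon gamma locus, was 10.1 ± 2.17 and 2.98 ± 1.75 CPM. The lowest was Gm14718, at 6.81 ± 1.81 CPM in TLCP against 34.6 ± 7.71 in Tfh (log2 fold change -2.35, SE 0.18). Chn1os3, Gm35363 and 5830416I19Rik followed, at -1.65, -1.55 and -1.38.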
